A study of Mus musculus with 5 samples.

Results

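The nuclear genes of the mitochondrial respiratory chain and ATP synthase were examined for H3K27ac, the acetylation of histone H3 found at active promoters and enhancers, in large intestinal regulatory T (Treg) cells. The members were the protein-coding genes of GENCODE M21 whose symbols begin with Nduf, Uqcr, Sdh, Cox4, Cox5, Cox6, Cox7, Cox8 or Atp5. This rule gave 98 gene records (97 symbols, since Atp5o has 2 records) of 21951 protein-coding genes. It used gene names alone and no measured value. For each gene, the read counts of all H3K27ac peaks lying within 3 kb of one of its transcription start sites (TSSs) were summed. Values are CPM (counts scaled to a common library size of 1000000), adjusted by TMM, a method of edgeR that equalises the bulk of peaks between libraries.

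H3K27ac had been profiled by CUT&Tag, in which an antibody guides a transposase to the mark, in C57BL/6 mice of 2 weeks of age at steady state. Both groups carried Foxp3Cre-YFP, so that Cre recombinase acted in cells that express Foxp3. The Ctrl group was Setd2 f/+ and therefore had 1 floxed allele of Setd2, the H3K36 methyltransferase gene. The KO group was Setd2 f/f. Each group had 2 libraries of 60000 sorted CD3+CD4+Foxp3-YFP+ cells, each pooled from 3 to 5 littermate mice, females and males per the labels. The libraries held 2395002 and 3630447 counts in peaks in Ctrl and 3007444 and 4712473 in KO. The promoters of all 6 Treg markers (Foxp3, Il2ra, Ctla4, Ikzf2, Tnfrsf18 and Tnfrsf4) held peaks, whose summed level was 997 and 1087 CPM in Ctrl and 1190 and 1491 CPM in KO. The 6 epithelial markers together reached 14.0 to 21.1 CPM, with no promoter peak at Cdx2 or Krt20, and the 5 myeloid markers 12.5 to 33.9 CPM, with none at Csf1r, Itgam or Lyz2. Of the 4 B cell markers, Ms4a1 and Pax5 had no promoter peak and the list summed to 13.1 to 24.4 CPM. The 4 stromal markers reached at most 4.07 CPM, and the endothelial list reached 76.5 to 109 CPM, nearly all of it at Pecam1, which T cells also express. Setd2 itself had 26.2 and 25.0 CPM at its promoter in Ctrl and 27.2 and 33.3 CPM in KO. Promoter acetylation is no readout of the floxed exons, so these values do not check the deletion.

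The respiratory chain passes electrons from NADH (complex I) and succinate (complex II) through complex III to complex IV, where oxygen is reduced. Complexes I, III and IV pump protons across the inner mitochondrial membrane, and ATP synthase uses the resulting gradient to make ATP. Most subunits are encoded in the nucleus and are needed in every respiring cell, so their genes are classed as housekeeping genes, while a few subunits of complex IV exist as paired genes with a widely used and a tissue-restricted form. The transcription factors NRF1, GABPA and YY1 are known to bind promoters of many of these genes. Treg cells are known for a high reliance on oxidative metabolism.

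The promoter sequences are shown first, because the mark measured here sits on them. RefSeq windows of 300 bases (250 before to 50 after the start, build GRCm38.p6) were matched by symbol for 78 of the 97 symbols, as 83 windows. Of these windows, 72 lay wholly inside an H3K27ac peak of their gene, 8 partly and 3 outside. The windows were searched on both strands for the letters GCATGCGC (NRF1 core), CCGGAAG (GABPA, an ETS site) and AAGATGGCG (YY1), and the capitals below mark matches to these 3. The NRF1 letters and their reverse complement overlap where the match is a palindrome. Atp5j is shown because 1 of its windows holds both the YY1 and the GABPA letters and because it shares its promoter peaks with Gabpa itself. Its other window, at the outermost start of the gene record, held none of the 3 sets of letters. Sdhb and Atp5l hold NRF1 and GABPA letters, Ndufa11 the NRF1 palindrome and Ndufs7 the YY1 letters. Ndufa7 is shown because it had the smallest p of the members, and Cox7a1 and Cox7a2 because they are the restricted and the widely used form of 1 subunit. The last 3 windows held none of the 3 sets of letters.
Atp5j, chr16:84834927-84835226, minus strand: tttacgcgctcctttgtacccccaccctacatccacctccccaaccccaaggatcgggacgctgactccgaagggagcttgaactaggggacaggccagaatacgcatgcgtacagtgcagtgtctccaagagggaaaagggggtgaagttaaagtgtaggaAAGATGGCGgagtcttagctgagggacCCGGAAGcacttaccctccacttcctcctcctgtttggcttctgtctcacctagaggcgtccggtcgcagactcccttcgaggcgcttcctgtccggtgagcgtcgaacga
Sdhb, chr4:140961021-140961320, plus strand: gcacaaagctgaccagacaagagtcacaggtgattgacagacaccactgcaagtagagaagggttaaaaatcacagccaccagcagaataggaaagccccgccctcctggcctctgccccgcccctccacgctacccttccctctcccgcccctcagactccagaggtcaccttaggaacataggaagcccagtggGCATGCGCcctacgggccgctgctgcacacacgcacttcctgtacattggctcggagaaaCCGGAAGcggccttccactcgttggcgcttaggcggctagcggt
Atp5l, chr9:44920693-44920992, minus strand: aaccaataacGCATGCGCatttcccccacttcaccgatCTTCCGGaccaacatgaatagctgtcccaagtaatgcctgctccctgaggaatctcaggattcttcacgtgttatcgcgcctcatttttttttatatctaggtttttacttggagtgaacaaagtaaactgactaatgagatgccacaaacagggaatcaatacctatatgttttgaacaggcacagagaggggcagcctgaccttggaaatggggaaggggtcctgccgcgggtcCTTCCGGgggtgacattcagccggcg
Ndufa11, chr17:56717512-56717811, plus strand: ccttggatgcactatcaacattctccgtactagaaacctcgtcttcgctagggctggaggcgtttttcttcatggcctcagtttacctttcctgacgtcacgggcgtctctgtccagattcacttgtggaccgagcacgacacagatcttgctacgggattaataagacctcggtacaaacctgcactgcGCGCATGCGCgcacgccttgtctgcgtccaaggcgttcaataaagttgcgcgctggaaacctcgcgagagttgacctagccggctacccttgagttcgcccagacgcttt
Ndufs7, chr10:80249199-80249498, plus strand: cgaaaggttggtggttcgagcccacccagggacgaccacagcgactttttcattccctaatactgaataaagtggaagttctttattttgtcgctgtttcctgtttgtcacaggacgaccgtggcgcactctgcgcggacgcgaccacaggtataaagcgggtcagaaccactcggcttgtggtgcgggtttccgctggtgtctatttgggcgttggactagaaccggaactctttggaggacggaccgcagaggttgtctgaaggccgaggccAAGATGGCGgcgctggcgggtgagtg
Ndufa7, chr17:33824322-33824621, plus strand: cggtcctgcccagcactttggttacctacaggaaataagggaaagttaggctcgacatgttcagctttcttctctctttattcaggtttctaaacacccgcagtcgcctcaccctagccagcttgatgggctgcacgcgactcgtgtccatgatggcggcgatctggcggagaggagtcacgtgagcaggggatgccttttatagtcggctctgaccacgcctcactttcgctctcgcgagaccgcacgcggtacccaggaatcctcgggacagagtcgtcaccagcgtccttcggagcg
Cox7a1, chr7:30183921-30184220, plus strand: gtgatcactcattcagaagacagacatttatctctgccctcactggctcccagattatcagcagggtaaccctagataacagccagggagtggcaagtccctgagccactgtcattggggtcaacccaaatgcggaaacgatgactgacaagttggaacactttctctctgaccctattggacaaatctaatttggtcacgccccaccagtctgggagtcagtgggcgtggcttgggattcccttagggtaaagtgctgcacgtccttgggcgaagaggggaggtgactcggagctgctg
Cox7a2, chr9:79759804-79760103, minus strand: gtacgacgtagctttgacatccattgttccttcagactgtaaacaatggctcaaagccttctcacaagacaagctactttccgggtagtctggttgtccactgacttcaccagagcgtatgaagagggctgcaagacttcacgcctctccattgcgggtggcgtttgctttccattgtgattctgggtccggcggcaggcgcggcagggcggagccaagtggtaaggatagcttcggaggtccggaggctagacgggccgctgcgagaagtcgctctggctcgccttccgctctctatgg

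The NRF1 letters were found in 12 of the 78 member symbols (15.4%), against 6.21% of the genes that entered the test described below and 4.11% of all coding genes with a window. The GABPA letters were found in 21 (26.9%, against 21.4% of tested and 13.4% of all coding genes) and the YY1 letters in 8 (10.3%, against 3.72% and 2.25%). Of the members, 34 held at least 1 of the 3 and none held all 3. In 7 of the 8 members with the YY1 letters, these lay in the 50 bases after the start, on the sense strand, as they did in Ndufs7. Among tested genes, 213 of 353 windows with the YY1 letters on either strand had them after the start. Of the 263 windows with them on the sense strand, 187 had them after the start. The letters GGGCGG (SP1) were found in 47.4% of member symbols and 67.5% of tested genes. TATAAA, a core promoter element, was found in 10.3% and 8.53%. The CREB letters TGACGTCA were found in 5.13% and 3.78%. The median GC content was 58.3% in member windows and 60.3% in windows of tested genes. These shares describe letters in a window, not bound sites, and no test was made of them.

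A promoter peak was present at 93 of the 98 gene records. The exceptions were Cox4i2, Cox6a2, Cox6b2, Cox7b2 and Cox8c, 5 of the 8 tissue-restricted isoform genes. All 93 passed the count filter (at least 10 counts in at least 2 libraries) in a test of 11562 genes. The members held 169 promoter peaks when each peak was counted once. A single peak was found at 44 members, 2 peaks at 27, and 3 or more at 22, with 5 at most. The peaks sat on the start sites. In 89 members a TSS lay inside a peak, which is 95.7% of the members with a peak, against 76.4% of all genes with a promoter peak. The most counted peak of a member had a median width of 1570 bp (423 to 5118 bp). Where it covered a TSS, as in 85 members, it reached a median of 667 bp upstream and 902 bp downstream. Ndufs4, encoding an accessory subunit, had its peaks on both sides of the TSS, the nearer at 131 bp. Cox8b (2056 bp), Ndufa4l2 (263 bp) and the longer record of Atp5o (873 bp) also had no TSS inside a peak.

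**Figure D1:**
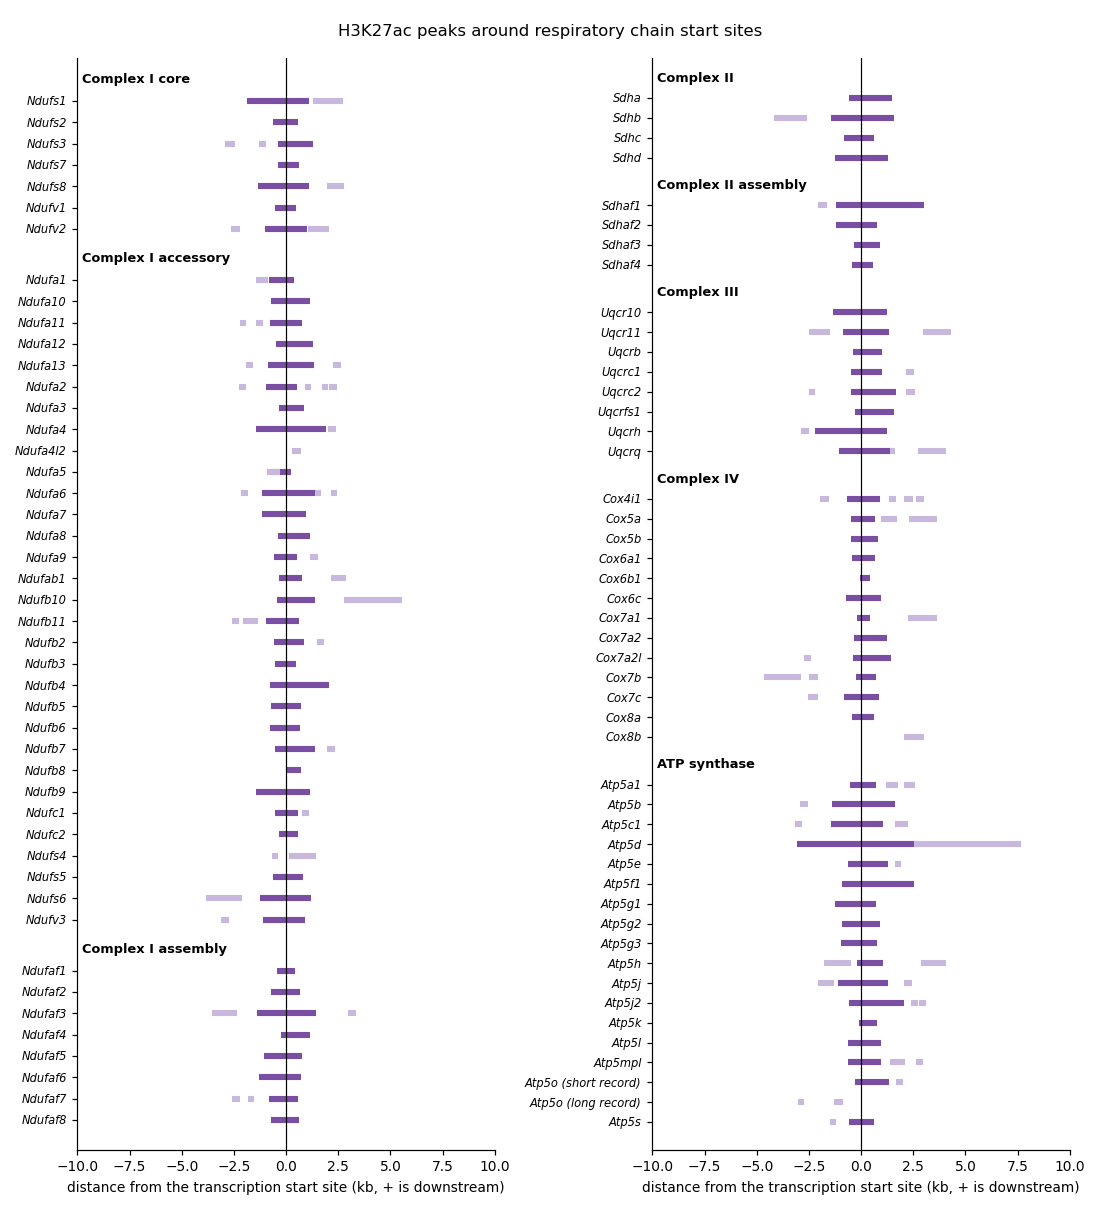
Each bar is an H3K27ac peak drawn by its distance in kb from the nearest TSS of the member, with downstream to the right, dark where the peak covers the TSS and pale where it does not. In 89 of the 93 members with a peak a TSS lay inside one. Pale bars belong to members with 2 or more peaks and to Cox8b and Ndufa4l2, whose single peak did not cover the TSS.

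Many of these promoters were shared with a neighbouring gene. A coding gene on the opposite strand started at most 1 kb upstream of 28 of the 98 members (28.6%), against 9.01% of all coding genes, at a median distance of 84.5 bp between the TSSs. The groups compared are unlike, since 93 of the 98 members but only 12638 of the 21951 coding genes had a promoter peak. The share among genes with a peak is not given here. The partners included Eef1b2 (a translation elongation factor gene) for Ndufs1, at 3 bp, Timm8b (mitochondrial protein import) for Sdhd, at 98 bp, Mrpl36 (a mitochondrial ribosomal protein gene) for Ndufs6, at 51 bp, Rps28 (a ribosomal protein gene) for Ndufa7, at 10 bp, and Gabpa for Atp5j, at 686 bp. Peaks of 43 members lay also within 3 kb of the TSS of another coding gene, which is 46.2% of members with a peak against 26.4% of all genes with one. Reads in such a peak cannot be divided between both genes and were counted for each. The median level was 34.1 CPM in the 28 members with a divergent partner and 24.6 CPM in the 65 tested members without one.

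The level of H3K27ac at members was of middle rank, with quartiles closer together than those of all genes and a full range of 3.57 to 177 CPM. The median of the 93 members was 27.8 CPM and that of all 11562 tested genes 30.2 CPM. The quartiles were 19.7 and 42.6 CPM in members and 14.9 and 54.0 CPM in all genes. When the genes were ranked by CPM, 24 members fell in the lowest of 3 equal parts, 47 in the middle and 22 in the highest. Per kb of peak the median was 14.6 CPM in members and 13.0 CPM in all genes. The reads in member peaks made up 0.304% and 0.291% of the counts in Ctrl 1 and Ctrl 2 and 0.288% and 0.297% in KO 1 and KO 2. The exact Clopper-Pearson 95% intervals of these shares were 0.297% to 0.311%, 0.286% to 0.297%, 0.282% to 0.294% and 0.292% to 0.302%, and cover counting error only. Sequencing was paired-end, and whether both mates of a pair were counted is not given in the sources used here. If they were, these intervals are too narrow and the counts given for weak peaks stand for fewer fragments.

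**Figure D2:**
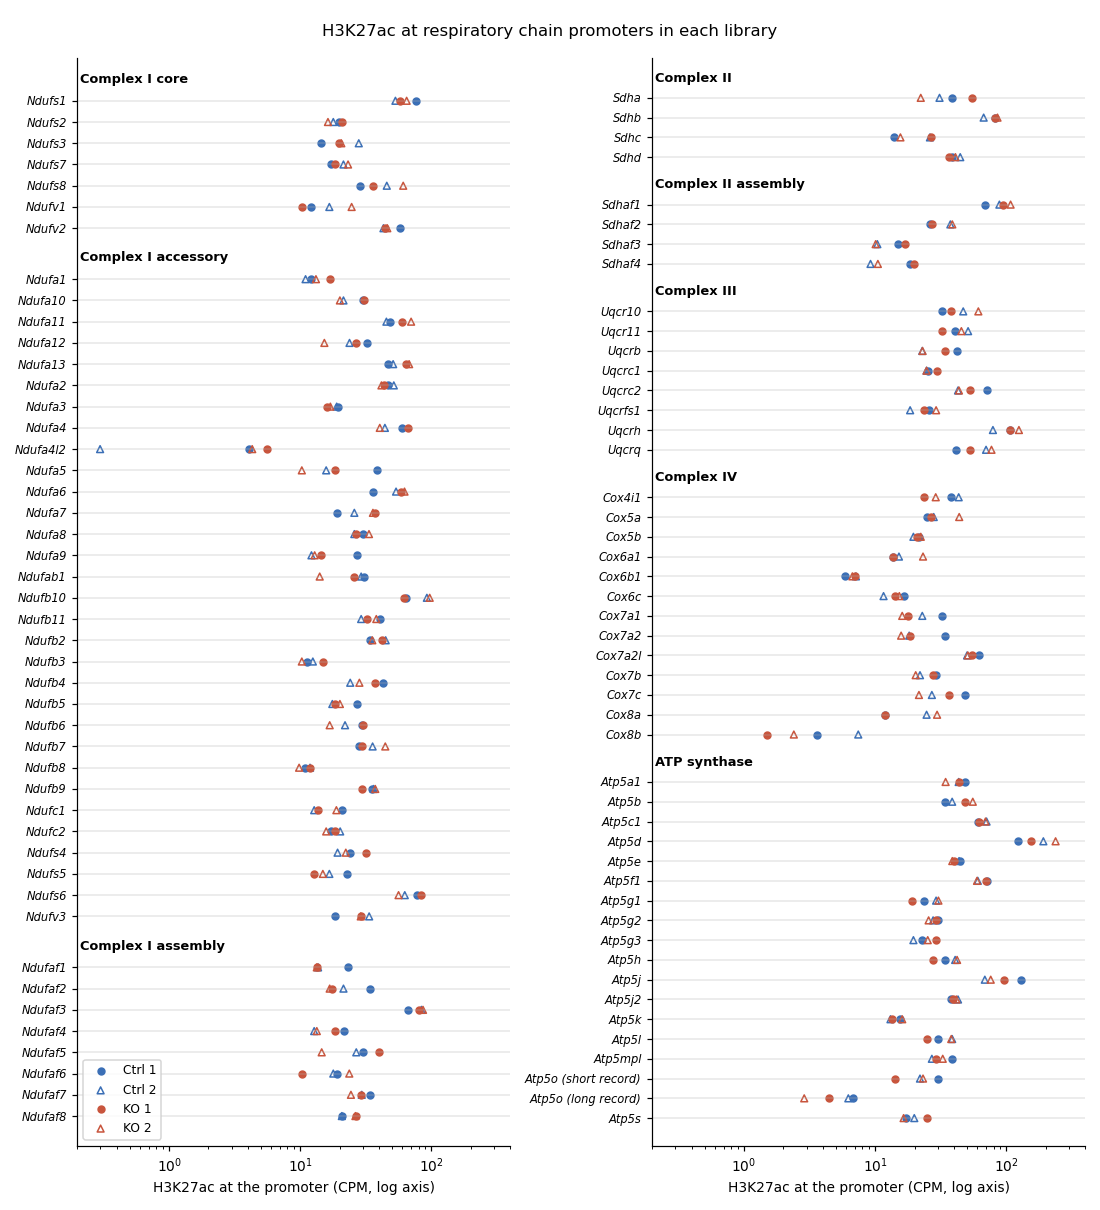
Promoter H3K27ac of each tested member in CPM (log axis), with 1 point per library, Ctrl in blue and KO in red, circles for replicate 1 and triangles for replicate 2. Most members lie between 10 and 100 CPM, Ndufa4l2 and Cox8b lie lowest, and in 70 of the 93 the ranges of Ctrl and KO overlap.

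Whether loss of Setd2 altered acetylation at these promoters was tested by comparing KO with Ctrl across all tested genes with the quasi-likelihood test of edgeR. None of the 93 members passed an adjusted p of 0.05 (Benjamini-Hochberg over all genes). The percentage of all tested genes that passed was 0.0%. At an unadjusted p under 0.05, 1 member was higher in KO (Ndufa7) and none was lower. The background in this fit was 0.83% of tested genes higher and 0.458% lower. The split of members turned to 0 higher and 1 lower (Cox4i1) with total counts as library size or a loess offset on abundance. With each peak given to the nearest TSS alone, it was 0 higher and 2 lower (Cox4i1 and Ndufs1). That setting tested 80 members and not Ndufa7, whose single peak is shared with Rps28. DESeq2 gave 0 members at an adjusted or an unadjusted p under 0.05, and 62 genes higher and 27 lower at the unadjusted level. The median log2 fold change was -0.019 over members, of which 43 were higher and 50 lower in KO. Over all genes it was 0.067, with 58.8% higher. In 11 members the KO libraries were both higher than either Ctrl library, and in 12 both lower. In all tested genes these orders were found in 17.8% and 8.93%. The 95% interval of the fold change stayed within 2-fold in either direction in 52 members and within 4-fold in 90, so smaller differences could not be told from 0 with these 2 libraries a group in many of them.

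**Figure D3:**
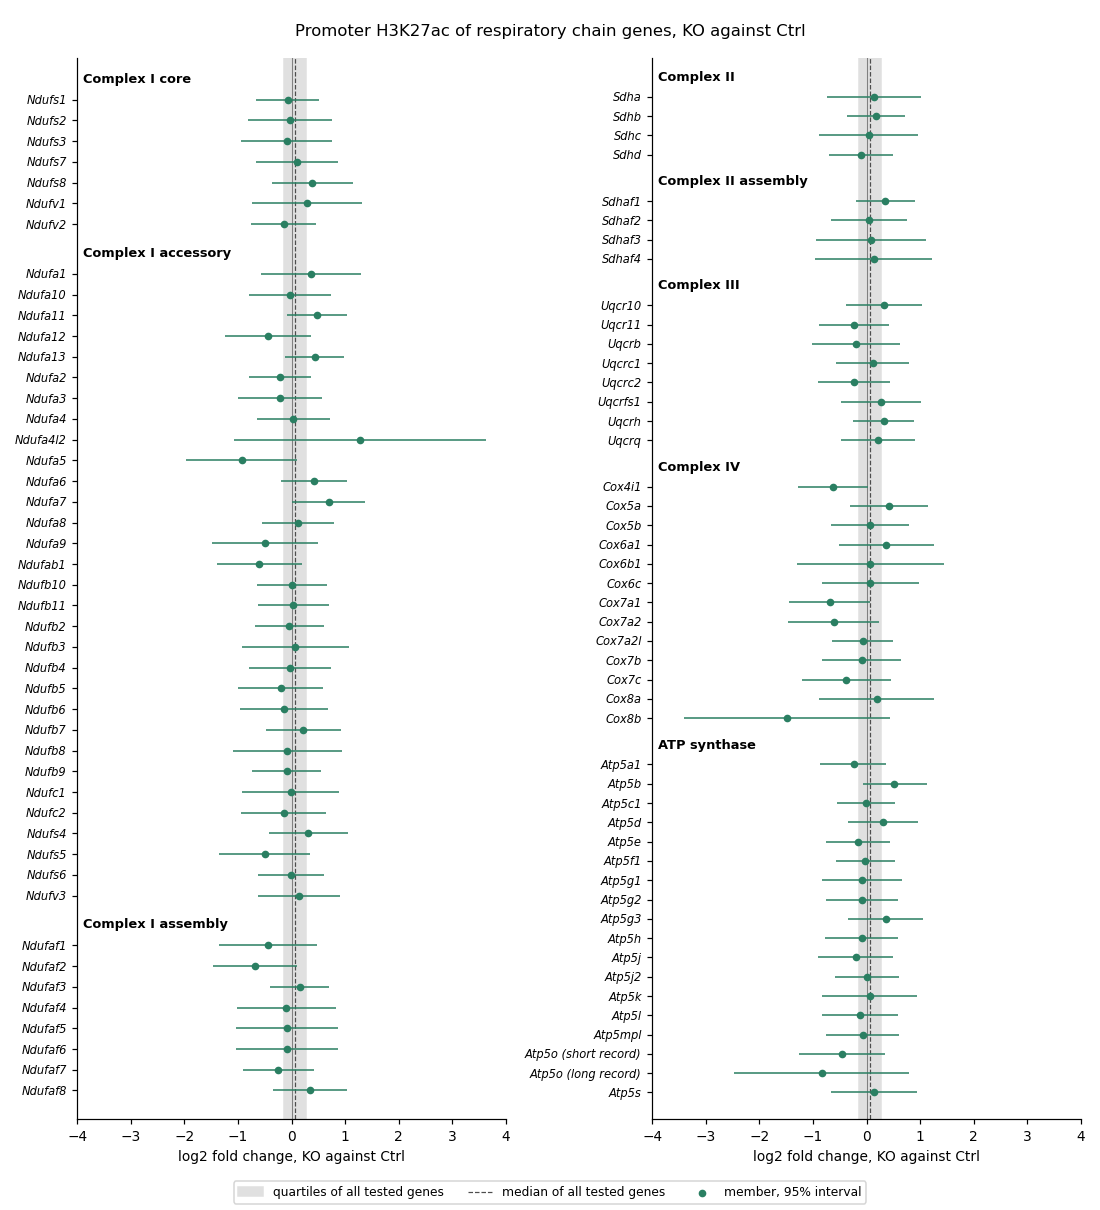
The log2 fold change of promoter H3K27ac, KO against Ctrl, of each tested member with its 95% interval from the edgeR fit. The grey band spans the quartiles of all tested genes (-0.14 to 0.27) and the dashed line is their median (0.067), and the interval lies wholly above or below 0 in 1 member, Ndufa7.

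At single peaks, too, no member was called, but the order of the medians was reversed. The median log2 fold change was 0.001 over the tested member peaks and -0.012 over all tested peaks. Of the 169 member peaks, 138 were tested, 70 were higher and 68 lower in KO, and none passed an adjusted p of 0.05 (smallest 0.998, edgeR), a level passed by 0.00134% of the 74550 tested peaks. At an unadjusted p under 0.05, 2 member peaks were higher, those of Ndufa7 and a peak upstream of Atp5h that lies also near another gene. At that level 1 was lower, in an intron of Ndufs1. The backgrounds were 1.45% of peaks higher and 2.79% lower.

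Complex I takes up the electrons of NADH. The 7 nuclear core genes encode the subunits of its electron-carrying arm. All 7 overlapped between groups, with log2 fold changes from -0.15 to 0.38, and their peaks summed to 226 CPM in both Ctrl libraries and 207 and 257 CPM in KO. Per kb of peak the highest were Ndufs7 and Ndufv1, which encodes the flavin-bearing subunit. Ndufs7, which encodes an iron-sulphur subunit, had 17.2 and 21.4 CPM in Ctrl and 18.3 and 23.2 CPM in KO. Ndufv1 had 12.2 and 16.7 CPM in Ctrl and 10.4 and 24.7 CPM in KO, so that its KO libraries enclosed both Ctrl values.

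The 31 accessory genes of complex I were grouped by symbol alone and so include Ndufa4 and Ndufa4l2. They numbered 14 higher and 17 lower, with a median log2 fold change of -0.013. Ndufa7 had 19.0 and 25.9 CPM in Ctrl and 37.3 and 35.9 CPM in KO. Both KO libraries were above both Ctrl libraries, with a log2 fold change of 0.69 ± 0.31 (SE; 95% interval 0.01 to 1.37; unadjusted p = 0.047, adjusted p = 0.999, edgeR). The unadjusted p rose to 0.0637 under a loess offset, 0.0643 when library size was total counts, and 0.0922 in DESeq2. It stayed under 0.05 with DESeq2 size factors in edgeR (0.0479), without a count filter (0.0468) and at a minimum of 50 counts (0.0478). The same held at a limit of 1 kb (0.0446) and with the replicate number as a block (0.0149). No setting brought the adjusted p under 0.05. When 1 library was left out, the log2 fold change of Ndufa7 was 0.5 (Ctrl 1), 0.94 (Ctrl 2), 0.65 (KO 1) or 0.72 (KO 2). Its single peak, chr17:33823405-33825522 in mm10, overlapped the TSS, a UTR and coding sequence of Ndufa7 and lay over the start of Rps28 as well. Ndufa11, an accessory subunit of the membrane arm, had the highest level per kb of the group (25.6 CPM per kb), with 48.4 and 45.5 CPM in Ctrl and 59.6 and 70.2 CPM in KO. The groups did not overlap, and the log2 fold change of 0.47 ± 0.26 did not pass the test (unadjusted p = 0.0931, adjusted p = 0.999, edgeR). Ndufb2, next in level per kb, had 33.9 and 44.9 CPM in Ctrl and 42.1 and 35.5 CPM in KO, with both KO values inside the Ctrl range. Ndufa5, singled out after its values were seen because its fold change is the lowest of the group, had 38.9 and 15.8 CPM in Ctrl and 18.3 and 10.3 CPM in KO. KO 1 lay inside the Ctrl range, and the log2 fold change was -0.93 ± 0.48.

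The 8 assembly genes of complex I encode factors that build the complex without staying in it. Of these, 2 were higher and 6 lower, with a median of -0.092. Ndufaf1 had 23.1 and 13.7 CPM in Ctrl and 13.4 CPM in both KO libraries, and Ctrl 1 was the one library that stood above the others. Ndufaf3, at a far higher level, had 66.1 and 84.2 CPM in Ctrl and 80.1 and 86.5 CPM in KO.

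Complex II oxidises succinate and is the member of the chain that is also an enzyme of the TCA cycle. Its 4 subunit genes ranged from -0.10 to 0.17 in log2 fold change. Sdha, the flavoprotein gene, had 38.5 and 31.0 CPM in Ctrl and 54.8 and 22.3 CPM in KO, and the KO libraries enclosed the Ctrl values. Sdhb, the iron-sulphur subunit gene, had 81.9 and 67.3 CPM in Ctrl and 82.0 and 85.8 CPM in KO, a log2 fold change of 0.17 ± 0.25. The 4 assembly genes of complex II all had a log2 fold change above 0 (0.05 to 0.35), and none passed the test. Their median was 0.105, and -0.041 without KO 1. Sdhaf1 had 69.2 and 88.7 CPM in Ctrl and 94.3 and 108 CPM in KO. Sdhaf2 had 26.2 and 37.5 CPM in Ctrl and 27.2 and 38.8 CPM in KO, with the second library higher in each group. The summed peaks of the 4 genes gave 129 and 146 CPM in Ctrl and 158 and 167 CPM in KO (1.18 times the Ctrl mean; 1.14 with total counts as library size; exact permutation p = 0.333, two-sided). The value 0.333 is the smallest p that 2 against 2 libraries allow.

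Complex III hands electrons from ubiquinol to cytochrome c. In all 8 genes the groups overlapped, with a median log2 fold change of 0.17. Uqcrh, which encodes the hinge protein, had the highest level per kb of the 93 members (27.2 CPM per kb), with 107 and 79.2 CPM in Ctrl and 107 and 125 CPM in KO. Its main peak, chr4:116073814-116077254, is shared with Lrrc41. Uqcrb had 42.5 and 22.9 CPM in Ctrl and 33.9 and 23.0 CPM in KO, so that replicate 1 was the higher library in both groups. The median of complex III fell to -0.010 without KO 2.

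Complex IV reduces oxygen to water. Of its 18 genes, 13 had a promoter peak, 6 of them higher and 7 lower, with a median of -0.072. Both KO libraries were below both Ctrl libraries in 3 (Cox4i1, Cox7a1 and Cox8b) and above them in none. Over all tested genes, 8.93% had both KO libraries below both Ctrl libraries and 17.8% had them above. The summed peaks gave 342 and 298 CPM in Ctrl and 275 and 297 CPM in KO (0.89 times the Ctrl mean; 0.86 with total counts as library size; exact permutation p = 0.333, two-sided, the smallest possible). The median turned to 0.076 without Ctrl 1, and the ratio of the sums was then 0.96. Cox7a2l had the highest level per kb (25.4 CPM per kb), with 61.5 and 50.3 CPM in Ctrl and 55.1 and 51.0 CPM in KO. Cox8a had 11.8 and 24.7 CPM in Ctrl and 11.9 and 29.7 CPM in KO. The second library was the higher one in both groups.

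**Figure D4:**
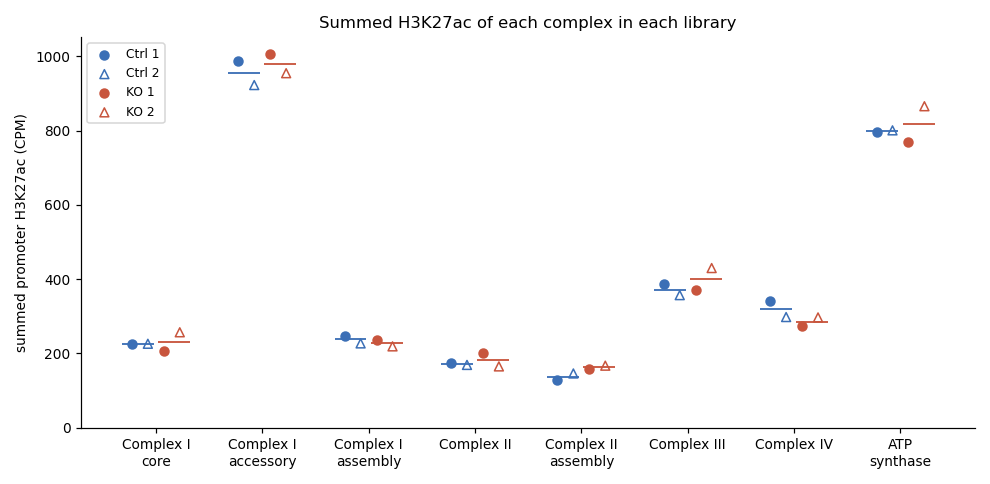
Summed promoter H3K27ac (CPM, each peak once) of the genes of each complex, 1 point per library, with a short line at the mean of each group of 2 libraries. The groups are separated in the assembly genes of complex II (KO higher) and, narrowly, in complex IV (KO lower), and overlap in the others.

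ATP synthase had 18 records, 6 higher and 12 lower (median -0.077). Per kb the highest were Atp5j, which encodes coupling factor 6 of the stalk, and Atp5l, a subunit gene of the membrane part. Atp5j had 130 and 68.7 CPM in Ctrl and 96.1 and 76.2 CPM in KO, with the KO libraries inside the Ctrl range. All 4 of its peaks were also promoter peaks of Gabpa, so both genes have the same values. Atp5l had 30.3 and 38.7 CPM in Ctrl and 25.0 and 38.1 CPM in KO. Atp5d, named after its values were seen, had the highest total of all members (124 and 192 CPM in Ctrl, 155 and 238 CPM in KO). Its 2 peaks cover 10934 bp together, and lie also within 3 kb of the TSS of Midn or Cbarp. The 2 records of Atp5o differed in level: the shorter one, with a TSS inside a peak, had 30.3, 22.0, 14.2 and 23.2 CPM in Ctrl 1, Ctrl 2, KO 1 and KO 2, and the longer one 6.79, 6.25, 4.47 and 2.88 CPM. Summed over every member, the peaks gave 3289 and 3147 CPM in Ctrl and 3224 and 3357 CPM in KO. The difference of 72.0 CPM was smaller than the pooled SD between libraries of a group (97.0 CPM; exact permutation p = 0.667, two-sided), and it turned to -49.4 CPM with total counts as library size.

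Of the 8 tissue-restricted genes, 3 had a promoter peak. Cox7a1, the heart and skeletal muscle form, stood out with 32.1 and 22.9 CPM in Ctrl and 17.9 and 16.1 CPM in KO, where the groups did not overlap. The log2 fold change of -0.69 ± 0.34 did not pass the test (95% interval -1.45 to 0.07; adjusted p = 0.999, edgeR). The larger part of this signal lay in a peak beyond the end of the gene, chr7:30186446-30187852, 2252 bp downstream of the TSS, with 22.2, 15.5, 11.2 and 9.82 CPM in Ctrl 1, Ctrl 2, KO 1 and KO 2. The peak at the TSS had 9.95, 7.44, 6.71 and 6.23 CPM. Cox7a2, the widely used form, had 34.4 and 18.2 CPM in Ctrl and 18.3 and 15.8 CPM in KO, and 13.7 CPM per kb against 10.8 CPM per kb at Cox7a1. Cox8b, also a muscle form, had the lowest fold change of all members (log2 -1.48 ± 0.87). Its 3.62 and 7.44 CPM in Ctrl and 1.49 and 2.40 CPM in KO rest on 8, 25, 4 and 10 reads in a peak 2056 bp from the TSS. Ndufa4l2, a hypoxia-responsive relative of Ndufa4, had the highest fold change (1.28 ± 1.07), with 4.07 and 0.298 CPM in Ctrl and 5.59 and 4.31 CPM in KO, from 9, 1, 15 and 18 reads. Ctrl 2 held a single read there. Only the KO libraries reached the minimum of 10 counts, so Ndufa4l2 entered the test through the group where it was higher. Its rank as the highest fold change therefore carries no weight. Neither gene passed the test.

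The widely used partners all had a peak over the TSS. Cox4i1, the form whose partner Cox4i2 had none, had 38.0 and 43.4 CPM in Ctrl and 23.5 and 29.0 CPM in KO. The groups did not overlap and the log2 fold change was -0.63 ± 0.29 (95% interval -1.28 to 0.02; unadjusted p = 0.056, adjusted p = 0.999, edgeR). The neighbouring genes Emc8 and Gm27021 have a TSS within 3 kb of the same peaks. With total counts as library size, with a loess offset on abundance and with each peak given to the nearest TSS alone, Cox4i1 had an unadjusted p under 0.05 and remained above an adjusted p of 0.05. Cox6a1 had 13.6 and 15.2 CPM in Ctrl and 13.8 and 23.2 CPM in KO. Cox6b1 was low, at 5.88 and 7.14 CPM in Ctrl and 7.08 and 6.71 CPM in KO, in a peak of 470 bp, and Cox7b had 29.0 and 22.0 CPM in Ctrl and 27.6 and 20.4 CPM in KO. Ndufa4, which is named after complex I but is known as a subunit of complex IV, had 60.2 and 44.3 CPM in Ctrl and 66.7 and 40.5 CPM in KO. The 3 genes of the c subunit, which differ in their import sequences and encode the same mature ring protein, were alike in level. Atp5g1 had 13.3, Atp5g2 15.4 and Atp5g3 13.7 CPM per kb of peak. Atp5g3 had 22.6 and 19.6 CPM in Ctrl and 29.1 and 25.2 CPM in KO, without overlap (log2 fold change 0.36 ± 0.32). Atp5g1 had 23.5 and 29.2 CPM in Ctrl and 19.0 and 30.4 CPM in KO, and Atp5g2 30.3 and 27.7 CPM in Ctrl and 29.1 and 25.6 CPM in KO.

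**Figure D5:**
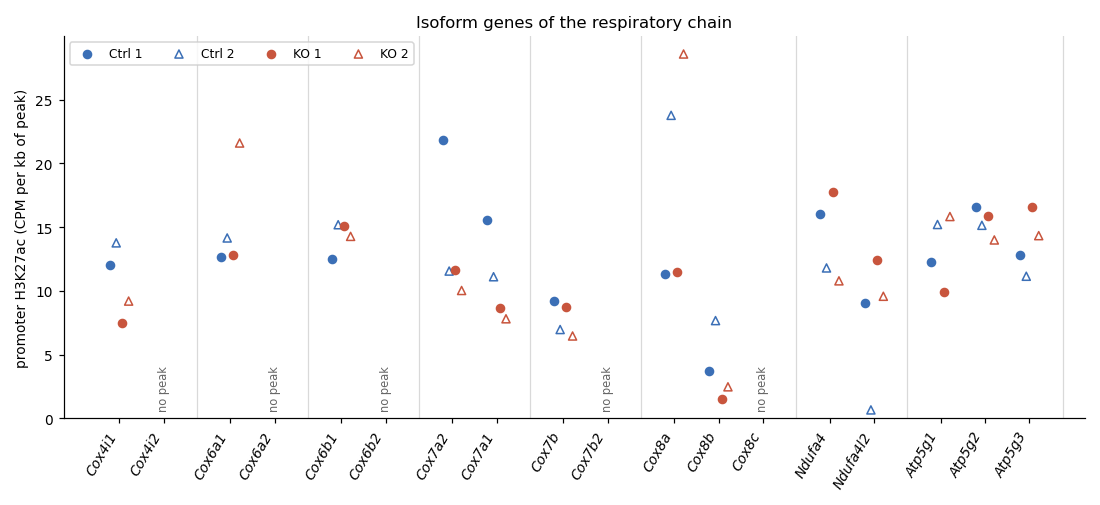
Promoter H3K27ac in CPM per kb of peak for isoform genes, the widely used form first in each block, with 1 point per library (Ctrl blue, KO red, circles replicate 1, triangles replicate 2). Cox4i2, Cox6a2, Cox6b2, Cox7b2 and Cox8c had no promoter peak, Cox8b lay below Cox8a, and Cox7a1 reached levels near those of Cox7a2.

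Genes that act with the chain but do not match the symbols were counted for comparison. Of 31 other respiratory chain and assembly genes, 30 were tested, with 16 higher, 14 lower and a median log2 fold change of 0.009. Uqcc3, a complex III assembly gene, had an unadjusted p under 0.05 (8.14 and 11.3 CPM in Ctrl, 23.5 and 15.8 CPM in KO; log2 fold change 0.99 ± 0.43). The mobile electron carrier cytochrome c, encoded by Cycs, had 51.6 and 54.2 CPM in Ctrl and 53.3 and 66.8 CPM in KO. Cyc1, the cytochrome c1 gene of complex III, had 14.9 and 31.0 CPM in Ctrl and 10.4 and 27.1 CPM in KO, so the spread within each group exceeded the difference between them. Of 16 regulators of mitochondrial biogenesis, 15 were tested, with 6 higher, 9 lower and a median of -0.123. Gabpa, among those lower, has the same promoter peaks and values as the member Atp5j and is no separate comparison. Tfam, the mitochondrial transcription factor, had 105 and 79.8 CPM in Ctrl and 77.5 and 73.6 CPM in KO (log2 fold change -0.29 ± 0.25, unadjusted p = 0.275, adjusted p = 0.999, edgeR). Gabpb1, the partner subunit of GABPA, had 110 and 91.4 CPM in Ctrl and 111 and 107 CPM in KO. Of the 13 TCA cycle genes, 7 were higher and 6 lower (median 0.057). Idh3g, a subunit gene of isocitrate dehydrogenase, had 30.3 and 41.7 CPM in Ctrl and 60.4 and 59.2 CPM in KO (log2 fold change 0.72 ± 0.28, unadjusted p = 0.0246, adjusted p = 0.999, edgeR). Idh3b, another subunit gene of the enzyme, lay the other way, with 22.6 and 12.8 CPM in Ctrl and 9.69 and 9.82 CPM in KO (-0.84 ± 0.45, unadjusted p = 0.0909, adjusted p = 0.999, edgeR). No gene of these 3 lists passed an adjusted p of 0.05.

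The libraries themselves differed at members about as much as the genotypes did. Over the 93 members, log2 CPM correlated with a Pearson's r of 0.84 within Ctrl and 0.88 within KO. Libraries of unlike genotype that shared a replicate number gave 0.90 (number 1) and 0.88 (number 2), while KO 2 gave 0.82 against Ctrl 1 and KO 1 gave 0.84 against Ctrl 2. The order of the pairs depended on the measure. Spearman's rank correlation was 0.82 within Ctrl, 0.81 within KO, 0.85 for number 1 and 0.91 for number 2. It was 0.73 for KO 2 against Ctrl 1 and 0.88 for KO 1 against Ctrl 2. This is a description over genes that share depth and peak width. The median ratio of the highest to the lowest library was 1.58 in members and 1.63 in all genes. Ctrl 1 was the highest library at 32 of the 93 members and at 3529 of all 11562 tested genes. KO 2 was the highest at 28 members and at 3766 of all tested genes. Without Ctrl 1 the median log2 fold change of the members was 0.065 beside 0.134 for all genes.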

How the data were processed

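H3K27ac CUT&Tag libraries of sorted large intestinal Treg cells were analysed, 2 Ctrl and 2 KO. An IgG library listed with the series was not analysed here. The authors deposited a table of raw counts, in reads per peak of a merged set, made by trimming, alignment to mm10 with Bowtie2, removal of multiply mapped and duplicate reads, peak calling with MACS2 against IgG, and merging and counting with bedtools (versions not given in the sources used here). Peaks had thus been called on the libraries compared.

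Peaks within 3 kb of a TSS of a GENCODE M21 basic protein-coding gene (GRCm38, the assembly of mm10) were summed per gene, and a peak near several genes was counted for each. Coordinates are 1-based. A gene or peak entered the test when 2 or more of the 4 libraries held at least 10 counts. The test was that of edgeR 4.0.16 (quasi-likelihood, TMM, no covariate) in R 4.3.3. Each SE is the size of the log2 fold change divided by the root of F, and 95% intervals from the t distribution. In the main promoter fit the p-values rest on the spread between libraries, each a pool of animals, drawn towards a spread shared by all genes. That fit had 8.88 prior and 2 residual degrees of freedom. In the main fit of single peaks the prior was infinite, so the spread was shared over peaks and not taken from each peak. The prior was infinite for promoters too when Ctrl 1, Ctrl 2 or KO 1 was left out. Sums were compared by an exact permutation test over libraries. The code was tested on simulated counts. Motif letters were searched in RefSeq promoter windows. Alternatives were DESeq2 1.42.0, its size factors, total counts, a loess offset (limma 3.58.1), other count minimums, a limit of 1 kb, the nearest TSS alone, the replicate number as a block and leaving out each library.

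The members and the gene lists were chosen with earlier results of these data known. Values in every library were given for the 2 members of each group with the highest CPM per kb, the members of highest and lowest fold change, those with an unadjusted p under 0.05, the isoform genes, Cyc1 and Cycs. Other genes given by library, such as Ndufa5, Atp5d, Uqcc3, Tfam, Gabpb1, Idh3g and Idh3b, were named outside this rule with their values known.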

Additional observations from a re-analysis of the deposited data

How the results depend on the processing

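No member passed an adjusted p of 0.05 at promoters or at single peaks under any alternative run, the replicate block included (0 members and 0 of 138 member peaks, where 211 of all 74550 tested peaks, 0.283%, passed with the block). The median log2 fold change of members moved from -0.019 to -0.082 with a loess offset and lay between -0.055 and 0.065 when 1 library was left out, highest without Ctrl 1. In these promoter fits it stayed below the median of all genes throughout, which was not so at single peaks in the main fit. Members at an unadjusted p under 0.05 numbered 1 in the main fit, 0 with DESeq2, 2 of 80 with the nearest TSS alone (1.35% of all genes), and 0 to 5 when 1 library was left out, with 5 without Ctrl 2 (5.38%, against 4.71% of all genes), 2 without KO 1 (2.15%, against 2.9%) and 0 without KO 2 (against 1.1%). With the replicate number as a block they numbered 11 (6 higher and 5 lower; 11.8%, against 10.1% of all genes), as genes overall rose from 96 higher and 53 lower to 910 and 257. The deviations of Ctrl 1 and KO 1 correlated across genes (r = 0.424), but the labels do not say that a number marks a shared batch, and only 2 pairs exist. The block changed no adjusted call of a member promoter or member peak.

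With total counts as library size, the summed CPM of members turned from 72.0 higher to -49.4, and the unadjusted calls over all genes from 96 higher and 53 lower to 53 and 91 (57 and 88 with the loess offset). The cause was not tested. That difference was -8.73 without KO 2 and 142 without Ctrl 1. Total counts also turned Ndufa4 to -0.02 and Sdhaf2 to -0.01, and the loess offset Ndufa4 to -0.03, on the log2 scale.

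Of 29 named members, 16 changed the sign of their log2 fold change in at least 1 alternative, and none of these was called. When 1 library was left out, these members ranged as follows: Atp5g1 -0.48 to 0.18, Atp5j -0.60 to 0.32, Atp5l -0.48 to 0.12, Cox6a1 -0.07 to 0.67, Cox6b1 -0.05 to 0.23, Cox7a2l -0.21 to 0.08, Cox7b -0.34 to 0.11, Cox8a -0.63 to 0.85, Ndufa4 -0.38 to 0.35, Ndufaf3 -0.01 to 0.34, Ndufb2 -0.22 to 0.19, Ndufs7 -0.09 to 0.28, Ndufv1 -0.48 to 0.74, Sdha -0.65 to 0.66, Sdhaf2 -0.24 to 0.34 and Uqcrb -0.59 to 0.30.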
